A study of Saccharomyces cerevisiae with 24 samples.

Results

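The 10 genes described here build the glycosylphosphatidylinositol (GPI) anchor of Saccharomyces cerevisiae or join it to protein. They were chosen by symbol: MCD4, GPI13, LAS21, GPI8, GAA1, GPI1, GPI2, GPI10, GPI14 and GPI16. All 10 were found among the 5449 genes measured on the array, each by 1 probe set, so the rule to keep the probe set with the highest mean over the 24 arrays decided nothing. All 10 had a mean above the background level of 5.59 (log2), and GPI2 alone lay below it on 1 array.

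A GPI anchor is a glycolipid that holds proteins at the cell surface, and in yeast many anchored proteins are passed on into the cell wall. It is assembled on phosphatidylinositol in the endoplasmic reticulum (ER), by addition of glucosamine, mannoses and phosphoethanolamine groups that come from phosphatidylethanolamine. A transamidase then cuts a signal from the end of the protein and puts the anchor in its place. The pathway therefore draws on the phospholipids whose synthesis inositol and choline are known to control.

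Transcripts were measured on 24 Affymetrix arrays, 1 sample each, of cells from chemostats at steady state on minimal medium. The 8 groups of 3 arrays combine the reference strain (ref) or the snf1 mutant, carbon (C) or nitrogen (N) limitation, and low or high inositol-choline. The amounts behind low and high, the parent strain and the snf1 allele are not stated by the labels. SNF1 encodes the kinase subunit of yeast's counterpart of AMPK, an energy sensor, and the design addresses how its mutation and the supply of inositol and choline act together in both limitations.

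SNF1 lay between 4.95 and 5.02 on the 12 mutant arrays and between 7.09 and 8.47 on the 12 reference arrays. For 6 arrays of the mutant the title gives N limitation and the description C limitation. The title was followed, and DAL5, a gene of allantoate uptake that nitrogen represses, gave 10.85 to 11.72 on these 6. The N-limited reference arrays gave 11.31 to 11.97 and the 12 C-limited arrays 6.83 to 7.13. The signal at the 3' end minus that at the 5' end of 7 control genes ranged from 0.74 to 0.93 at low and from 0.91 to 2.74 at high inositol-choline. The highest values, 2.74 and 2.67, came from replicate 1 of the N-limited high groups of the reference and of the mutant. The spiked control dap ranged from 5.44 to 5.95 at low and from 5.63 to 7.28 at high, and these array differences and inositol-choline cannot be told apart. INO1, the inositol synthesis gene that inositol and choline repress, was lower at high inositol-choline by -3.60 in the N-limited reference, -4.11 in the C-limited mutant and -3.81 in the N-limited mutant, all called, but by -0.06 in the C-limited reference (adjusted p = 0.841). The median SD of a gene was 0.19 in the N-limited high group of the reference and 0.18 in that of the mutant, against 0.03 to 0.07 in the other 6 groups.

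Values below are log2 expression values, and differences between groups are log2 differences ± SE from limma with n = 3 arrays per group. A gene is called when its p, adjusted over all 5449 genes, is under 0.05. Nothing in the labels says that replicates are separate cultures, so p-values measure the spread between these samples only. The fit assumes a common spread in all 8 groups, although the N-limited high groups were wider. Its SEs can therefore be too small where these groups enter and too large elsewhere. For inositol-choline in the N-limited reference 31.5% of all genes were called, but 2.57% on the arrays compared alone. For mutant against reference under N limitation at low these shares were 9.73% and 45.9%. Fewer cells holding a transcript and less of it per cell cannot be told apart.

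The 10 genes differed widely in how much they moved. The means of the 8 groups spanned 1.66 for MCD4, 0.80 for GPI8, 0.65 for LAS21, 0.54 for GPI13 and 0.50 for GPI16. The other members spanned 0.21 (GPI14) to 0.34 (GAA1). Over all genes the median span was 0.54, and 5.05% of them spanned at least as much as MCD4. Of the 12 comparisons between 2 groups, MCD4 was called in 9, LAS21 in 7, GPI13 in 6, GAA1 in 5, GPI8 and GPI16 in 4 each and GPI1 in 2. GPI2, GPI10 and GPI14 were called in none in the fit over all arrays. Each of the 12 called between 4.15% and 52.3% of all genes. On the arrays compared alone, all 10 members were called for inositol-choline in the C-limited mutant (60.6% of all genes).

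**Figure D1:**
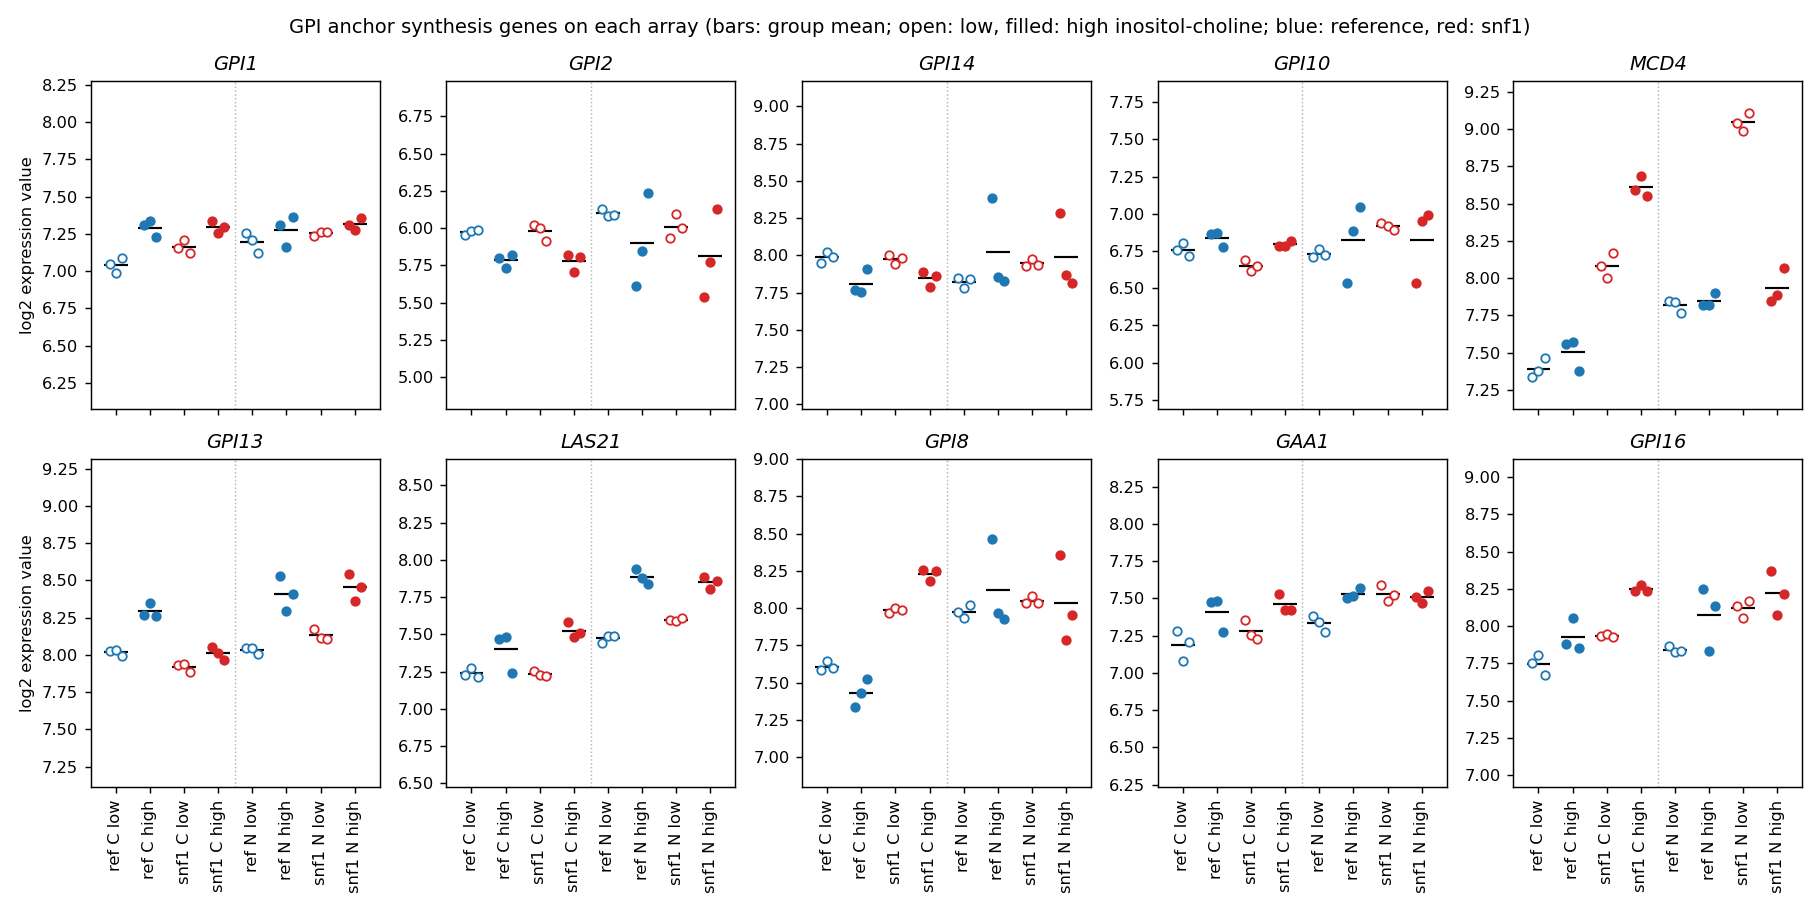
Log2 expression value (vertical axis, of equal length in log2 units in every panel) of the 10 genes on the 24 arrays, in 8 groups of 3 (horizontal axis); points are arrays, bars group means, open points low and filled points high inositol-choline, blue reference and red snf1. MCD4 spans 7.33 to 9.11, and replicate 1 of both N-limited high groups lies apart from its group for GPI14, GPI8 and GPI10.

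MCD4 encodes the ER enzyme that adds phosphoethanolamine to the first mannose of the anchor. Its level was highest in the N-limited mutant at low inositol-choline, with 9.04, 8.99 and 9.11 on the 3 arrays. The C-limited mutant followed at high inositol-choline (8.59, 8.68 and 8.55) and then at low (8.08, 8.0 and 8.17). Each of these 3 groups lay above every reference array, and they did not overlap one another. Mutant and reference did not overlap for 64%, 64.8% and 55.9% of all genes under C limitation at low, at high and under N limitation at low. Within the mutant, high and low did not overlap under C limitation for 67.5% of all genes, and N and C limitation at low for 68.6%.

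The N-limited mutant at high inositol-choline (7.84, 7.88 and 8.07) overlapped the C-limited mutant at low above it and the N-limited reference below it. The N-limited reference was at 7.82, 7.82 and 7.90 at high and at 7.85, 7.84 and 7.77 at low inositol-choline. The C-limited reference was lowest, with 7.56, 7.57 and 7.38 at high and 7.33, 7.37 and 7.46 at low. In the reference strain the arrays of both levels overlapped within each limitation, and all N-limited arrays lay above all C-limited ones. N- and C-limited reference arrays of the same level did not overlap for 70.4% (low) and 51.4% (high) of all genes.

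The mutant held more MCD4 transcript than the reference in 3 of the 4 media. The difference, mutant minus reference, was 0.69 ± 0.067 under C limitation at low inositol-choline (1.62-fold, adjusted p = 9.02e-08) and 1.11 ± 0.067 at high (2.15-fold, adjusted p = 8.76e-11). Under N limitation it was 1.23 ± 0.067 at low (2.34-fold, adjusted p = 2.6e-10). At high it was 0.09 ± 0.067 and not called (adjusted p = 0.73).

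The response of MCD4 to inositol-choline, high minus low, had opposite signs in the mutant. It rose by 0.53 ± 0.067 under C limitation (1.44-fold, adjusted p = 1.19e-05) and fell by 1.11 ± 0.067 under N limitation (2.16-fold, adjusted p = 7.44e-10). The difference between those responses was -1.64 ± 0.095 (adjusted p = 4.4e-10). In the reference strain the responses were 0.11 ± 0.067 under C limitation and 0.03 ± 0.067 under N limitation, neither called.

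The test of the strain difference in that response gave 0.41 ± 0.095 under C limitation (adjusted p = 0.014) and -1.14 ± 0.095 under N limitation (adjusted p = 3.04e-07). The first of these was not called without replicate 2 of the C-limited mutant at high inositol-choline (adjusted p = 0.0509). Without the 2 arrays of lowest 5' signal the fall of MCD4 in the N-limited mutant was -1.07 (adjusted p = 2.92e-10), and its strain difference in response under N limitation was -1.11 (1.55e-07).

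N against C limitation raised MCD4 in the reference strain by 0.43 ± 0.067 at low and 0.34 ± 0.067 at high inositol-choline (adjusted p = 2.81e-05 and 0.00028). The second was not called with weights by group (adjusted p = 0.0866) or with a replicate block on the arrays compared alone (adjusted p = 0.0971). In the mutant the difference was 0.96 ± 0.067 at low (1.95-fold, adjusted p = 9.47e-10) and -0.68 ± 0.067 at high (1.6-fold lower, adjusted p = 9.92e-08).

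**Figure D2:**
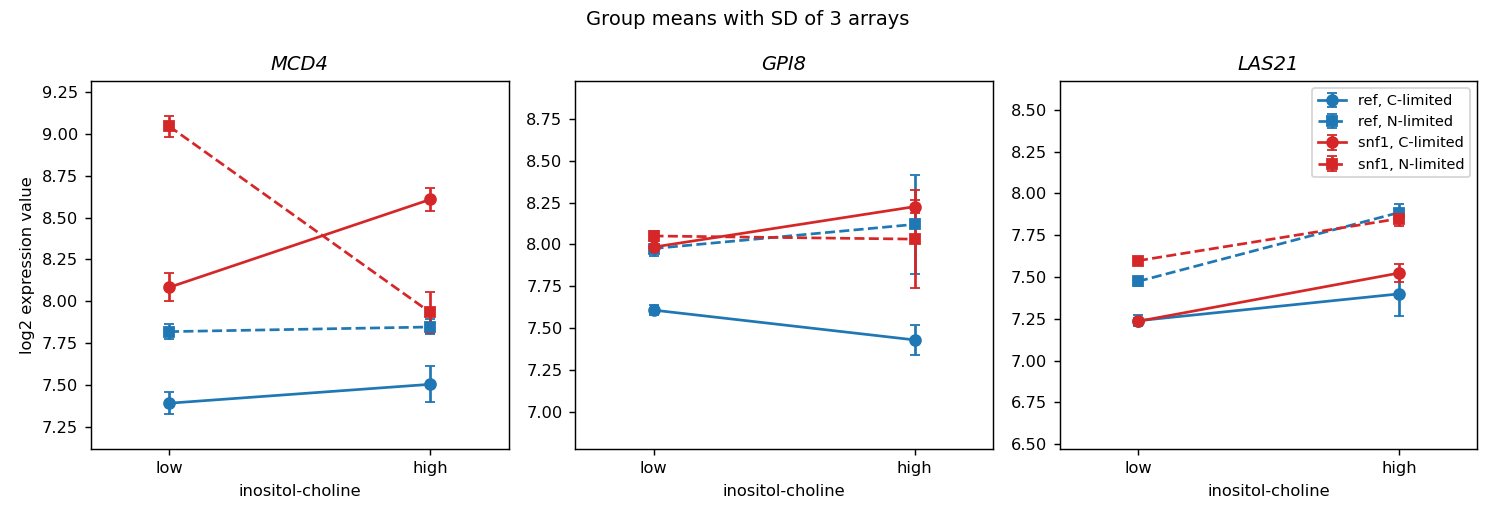
Mean log2 expression value (vertical axis) of MCD4, GPI8 and LAS21 at low and high inositol-choline (horizontal axis), with the SD of 3 arrays as bars; blue is the reference and red the snf1 mutant, solid C-limited and dashed N-limited. The lines of MCD4 cross in the mutant, from 8.08 to 8.61 under C and from 9.05 to 7.93 under N limitation.

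GPI13 and LAS21 encode the enzymes that place phosphoethanolamine on other mannoses of the anchor, GPI13 on the third, which carries the link to protein, and LAS21 on the second. Their patterns were not that of MCD4. Over the 8 group means the Pearson r of GPI13 with LAS21 was 0.82, while that of MCD4 was -0.20 with GPI13 and 0.23 with LAS21. These means share their arrays, and the values are a description.

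LAS21 was higher at high inositol-choline in 3 of the 4 responses. In the N-limited reference it went from 7.44, 7.49 and 7.49 to 7.94, 7.88 and 7.84, a difference of 0.41 ± 0.054 (1.33-fold, adjusted p = 2.66e-05). That call was lost with a replicate block on these arrays alone (adjusted p = 0.212). In the C-limited mutant LAS21 went from 7.26, 7.23 and 7.22 to 7.58, 7.48 and 7.51 (0.29 ± 0.054, adjusted p = 0.000681). The groups did not overlap in either case, as was so for 43.8% and 67.5% of all genes.

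In the N-limited mutant LAS21 went from 7.60, 7.59 and 7.61 to 7.89, 7.80 and 7.86 (0.25 ± 0.054, adjusted p = 0.00136, but 0.11 with weights by group). In the C-limited reference it was at 7.23, 7.27 and 7.21 at low and at 7.47, 7.48 and 7.24 at high, which overlapped (0.16, adjusted p = 0.0513). N limitation raised LAS21 in all 4 comparisons, by 0.24 to 0.49, with adjusted p from 3.65e-07 to 0.00137. In the mutant at high it was not called with a replicate block on the 6 arrays alone (adjusted p = 0.0544). The 4 strain differences, -0.04 to 0.12, were not called.

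GPI13 was higher at high inositol-choline in both reference comparisons and in the N-limited mutant. The C-limited reference had 8.02, 8.03 and 7.99 at low and 8.27, 8.35 and 8.26 at high (0.28 ± 0.055, adjusted p = 0.00306). The N-limited reference had 8.05, 8.05 and 8.01 at low and 8.53, 8.29 and 8.41 at high (0.38 ± 0.055, adjusted p = 7.67e-05, but 0.0678 on these 6 arrays alone). In neither case did the groups overlap, as was so for 48.9% and 43.8% of all genes.

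In the mutant the rise of GPI13 was 0.32 ± 0.055 under N limitation, from 8.17, 8.11 and 8.11 to 8.54, 8.36 and 8.46 (adjusted p = 0.000185, but 0.109 with a replicate block on these 6 arrays). Under C limitation the difference was 0.09 ± 0.055 and not called. Its 1 called strain difference was a fall of 0.28 ± 0.055 on the log2 scale in the C-limited mutant at high inositol-choline (adjusted p = 0.000389). The values of GPI13 there, 8.05, 8.01 and 7.97, were all below the reference, and 64.8% of all genes did not overlap either. N limitation raised it in the mutant by 0.21 at low and 0.44 at high (adjusted p = 0.00484 and 1.73e-06), while in the reference the differences were 0.02 and 0.12 and not called.

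The members GPI8, GAA1 and GPI16 belong to the transamidase that joins the anchor to protein, and GPI8 is its catalytic subunit. GPI8 was lowest in the C-limited reference, with 7.58, 7.64 and 7.60 at low and 7.34, 7.43 and 7.52 at high inositol-choline. All 18 other arrays lay above these 6. Under C limitation mutant and reference did not overlap for 64% of all genes at low and 64.8% at high. In the reference, N and C limitation did not overlap for 70.4% of all genes at low and 51.4% at high. The C-limited mutant was at 7.97, 8.0 and 7.99 at low and at 8.25, 8.18 and 8.25 at high.

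The strain difference of GPI8 under C limitation was 0.38 ± 0.120 at low (1.3-fold, adjusted p = 0.0191) and 0.80 ± 0.120 at high (1.74-fold, adjusted p = 2.63e-05). The first was not called without replicate 1 of the C-limited reference at low (adjusted p = 0.0588) or without replicate 2 of the C-limited mutant at low (0.0518). Under N limitation the strain differences were 0.08 at low and -0.09 at high and not called. At high inositol-choline the strain difference itself differed between the limitations, by -0.89 ± 0.169 (adjusted p = 0.000631), and at low by -0.30 ± 0.169, which was not called.

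In the reference, N limitation raised GPI8 by 0.37 at low (7.97, 7.93 and 8.02 under N; adjusted p = 0.0172, but 0.056 without replicate 3 of that N-limited group) and by 0.69 at high (8.46, 7.97 and 7.93; adjusted p = 8.33e-05). In the mutant the same differences were 0.07 and -0.19 and not called. The value of 8.46, and 8.36 against 7.79 and 7.95 in the mutant, came from the 2 arrays with the lowest 5' signal. Without these 2 arrays the difference in the reference at high was 0.52 (adjusted p = 3.86e-08), and that in the mutant was -0.36 and called (7.19e-06). None of the 4 responses of GPI8 to inositol-choline was called, with differences from -0.18 to 0.24.

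GPI16 was called higher in the mutant under C limitation at high and under N limitation at low. Under C limitation at low (0.19, adjusted p = 0.094) and under N limitation at high (0.15, adjusted p = 0.533) it was not called. The C-limited mutant at high inositol-choline was at 8.24, 8.27 and 8.24, above the reference at 7.88, 8.06 and 7.85 (0.32 ± 0.086, adjusted p = 0.00641). The N-limited mutant at low was at 8.13, 8.06 and 8.17, above 7.87, 7.83 and 7.83 (0.28 ± 0.086, adjusted p = 0.0463, but kept in 8 of 24 fits without 1 array, with up to 0.174). In neither case did the groups overlap, as was so for 64.8% and 55.9% of all genes. GPI16 also rose with inositol-choline in the C-limited mutant, from 7.94, 7.94 and 7.93 (0.31 ± 0.086, adjusted p = 0.0121). The rise of 0.23 in the N-limited reference (adjusted p = 0.0469) was 0.10 when the 3' minus 5' value of each array entered the fit and 0.14 without the 2 arrays of lowest 5' signal, and not called in either.

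GAA1 moved little. At high inositol-choline it was higher by 0.22 ± 0.062 in the C-limited reference, 0.20 ± 0.062 in the N-limited reference and 0.18 ± 0.062 in the C-limited mutant (adjusted p = 0.0206, 0.0228 and 0.0427). Its response in the N-limited mutant was -0.02 and not called. In the C-limited reference its arrays overlapped, with 7.28, 7.08 and 7.20 at low and 7.47, 7.49 and 7.27 at high. That call was lost without replicate 2 of the low group (adjusted p = 0.12) or replicate 1 or 2 of the high group (0.104 and 0.128). The call in the N-limited reference was lost on the 6 arrays compared alone (adjusted p = 0.142). That in the C-limited mutant was kept in 16 of 24 fits that each left out 1 array, with an adjusted p of up to 0.178. In the N-limited mutant GAA1 was at 7.59, 7.48 and 7.52 at low, which was above the reference by 0.20 (adjusted p = 0.048, but kept in 9 of 24 fits without 1 array, with up to 0.203) and above the C-limited mutant by 0.25 ± 0.062 (adjusted p = 0.00385).

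The remaining members act earlier in assembly. GPI1 and GPI2 are subunits of the enzyme that starts the anchor by adding N-acetylglucosamine to phosphatidylinositol. GPI1 was higher at high inositol-choline in the C-limited reference, from 7.05, 6.99 and 7.09 to 7.31, 7.34 and 7.23 (0.25 ± 0.053, adjusted p = 0.00505). These arrays did not overlap, as was so for 48.9% of all genes. Under N limitation GPI1 was higher by 0.15 in the reference at low (adjusted p = 0.0259, but 0.0893 after quantile normalization).

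GPI2 lay between 5.54 and 6.24, close to the background level, so its differences may be compressed. Its 4 responses to inositol-choline were -0.19 to -0.20 ± 0.125, none called in the fit over all arrays. On the arrays compared alone that in the C-limited mutant was called, as it was for all 10 members (60.6% of all genes). GPI14 and GPI10 encode mannosyltransferases, which add the first and the third mannose. GPI14 lay between 7.75 and 8.39 and GPI10 between 6.53 and 7.05, with the 12 differences of GPI14 between -0.18 and 0.21 and those of GPI10 between -0.11 and 0.27.

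The arrays with low 5' signal stood apart for these genes. GPI14 was at 8.39 and 8.28 on replicate 1 of the N-limited high groups of the reference and mutant, against 7.81 to 7.87 on the other 4. GPI10 was at 6.53 and 6.54 there, against 6.89 to 7.05. With the 3' minus 5' signal as a covariate, GPI10 was higher by 0.26 under N limitation in the reference at high inositol-choline (adjusted p = 0.000102), where the fit without it gave -0.01.

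**Figure D3:**
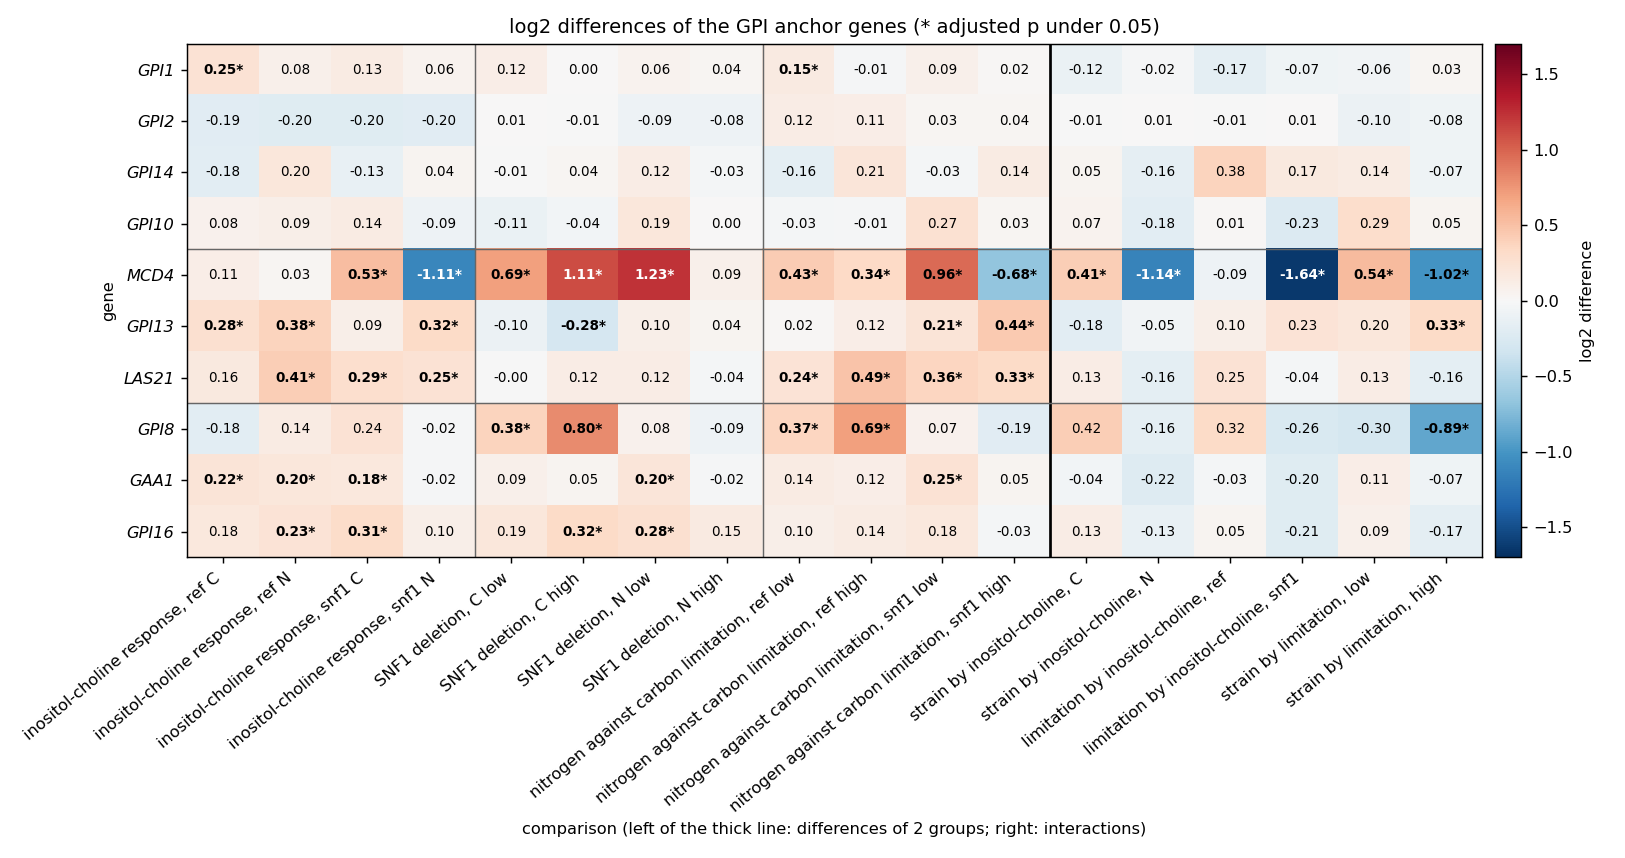
Log2 differences of the 10 genes (rows) in 12 differences of 2 groups and 6 interactions (columns, separated by the thick line), printed and coloured from blue (negative) to red (positive); an asterisk marks an adjusted p under 0.05. The row of MCD4 holds the values furthest from 0, from -1.64 to 1.23, and the rows of GPI2, GPI10 and GPI14 hold no asterisk.

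Counted over the 10 members, 3 were called in the response of the C-limited reference to inositol-choline, where 14.8% of all genes were (7.85% higher and 6.96% lower). In the N-limited reference 4 were called (31.5% of all genes, 16.6% higher and 14.9% lower). In the C-limited mutant 4 were called (23.4% of all genes, 10.2% higher and 13.2% lower) and in the N-limited mutant 3 (37.2% of all genes, 19.5% higher and 17.7% lower). All were higher at high inositol-choline but MCD4 in the N-limited mutant. The median differences of the 10 were 0.14, 0.17, 0.16 and 0.01 in that order, beside -0.02, 0.03, -0.01 and 0.02 over all genes. The shares called are near those of all genes in both N-limited responses.

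For mutant against reference, 2 members were called under C limitation at low inositol-choline (34.4% of all genes, 20.2% higher and 14.3% lower) and 4 at high (32.8% of all genes, 18% higher and 14.8% lower). GPI13, the 1 lower, was at high. Under N limitation 3 were called at low, all higher (9.73% of all genes, 4.72% higher and 5.01% lower). At high 0 were called (4.15% of all genes, 2.17% higher and 1.98% lower), where limma gave 0 of 10 at an unadjusted p under 0.05 too. With replicate numbers paired on these 6 arrays 0 members were called (3.93% of all genes), with 1 at an unadjusted p under 0.05 and a lowest adjusted p of 0.205. At N low, with replicate numbers paired and only these 6 arrays fitted, 7 were called, as were 51% of all genes. After quantile normalization, or without any 1 of these 6 arrays, MCD4 alone of the 10 was called.

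For N against C limitation 4 members were called in the reference at low, all higher under N (44.3% of all genes, 25.1% higher and 19.1% lower), and 3 at high, all higher (52.3% of all genes, 31.4% higher and 20.9% lower). In the mutant 4 were called at low, all higher (30.6% of all genes, 15.3% higher and 15.3% lower), and 3 at high, of which MCD4 was lower (48.6% of all genes, 26.5% higher and 22.1% lower). With replicate numbers paired, on the 6 arrays alone, 7 were called in the mutant at low, as were 66.5% of all genes. The share of members was below that of all genes in 3 of these 4 comparisons.

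In the tests of interaction 1 member was called for strain by inositol-choline under C (4.15% of all genes, 1.85% higher and 2.29% lower) and 1 under N limitation (2.07% of all genes, 1.05% higher and 1.03% lower), both MCD4. For limitation by inositol-choline 0 were called in the reference (4.94% of all genes, 2.73% higher and 2.2% lower), where 3 had a p under 0.05 before adjustment, and 1 in the mutant (15% of all genes, 8.96% higher and 6.07% lower), again MCD4. For strain by limitation 1 was called at low (19.5% of all genes, 8.74% higher and 10.8% lower), which was MCD4, and 3 at high (20.6% of all genes, 9.95% higher and 10.6% lower), which were MCD4, GPI8 and GPI13. The value of GPI13, 0.33 ± 0.077 (adjusted p = 0.00392), was not called with weights by group (0.176) or on the 12 arrays compared alone (0.0806).

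Over the 45 pairs of members the Pearson r of the 8 group means had a median of 0.38. It was over 0.5 in 19 pairs and negative in 11. GAA1 was most alike to GPI1 (0.90), LAS21 (0.86) and GPI16 (0.84), and MCD4 to GPI8 (0.68). The lowest value was that of GPI1 with GPI2 (-0.61).

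Of 13 other genes of anchor assembly, GWT1 moved most like MCD4 (r = 0.91 over 8 group means). GWT1 encodes the enzyme that acylates the inositol ring. It was higher in the mutant by 0.46 ± 0.081 under C limitation at low, 0.60 ± 0.081 at high and 0.46 ± 0.081 under N limitation at low (adjusted p = 0.000136, 7.15e-06 and 0.00075). In the N-limited mutant it fell by 0.54 ± 0.081 with inositol-choline (adjusted p = 5.13e-05), as it did by 0.28 ± 0.081 in the N-limited reference (0.0152). The SD of GWT1 under N limitation was 0.13 in the mutant and 0.20 in the reference at high, against 0.01 and 0.08 at low.

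GPI15, of the same first enzyme as GPI1, was higher in the C-limited mutant by 0.27 and 0.30 and had an r with MCD4 of 0.89. GPI12, the deacetylase of the next step, was lower there by -0.22 and -0.38. Across the 13, the mutant had 3 rises and 1 fall under C limitation at low, 5 rises and 1 fall at high, and 2 rises under N limitation at low. Of all genes, 20.2%, 18% and 4.72% rose in that order, and 14.3%, 14.8% and 5.01% fell. Responses to inositol-choline held 3, 2, 2 and 2 falls in the C- and N-limited reference and the C- and N-limited mutant, and 0 rises. Of all genes, 6.96%, 14.9%, 13.2% and 17.7% fell in these responses, and 7.85%, 16.6%, 10.2% and 19.5% rose.

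Among 10 genes of anchor remodelling and ER exit, 5 fell with inositol-choline in the N-limited mutant, where 17.7% of all genes fell. These were ERP2 (-1.23 ± 0.186), ERP1, ERV25 and EMP24, which encode p24 proteins of ER-to-Golgi vesicles, and TED1 (-0.40). ERP2 and ERV25 fell in the N-limited reference too, by -0.78 and -0.53, while GUP1 rose by 0.31. Of the 10 these were the 2 falls and the 1 rise called there (14.9% and 16.6% of all genes). These calls come from the fit over all arrays. With only the arrays compared, 13.5% of all genes were called for inositol-choline in the N-limited mutant and 2.57% in the N-limited reference. In the C-limited mutant limma called 0 of the 10 for inositol-choline (23.4% of all genes), with 2 at an unadjusted p under 0.05. BST1, which encodes the inositol deacylase of finished anchors, was higher in the C-limited mutant by 0.42 at low and 0.29 at high.

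The list of building blocks holds 13 genes for phospholipid, sugar nucleotide and dolichol-linked mannose supply. Under C limitation 8 rose in the mutant at low and 8 at high, and 0 fell. Among all genes, 20.2% rose and 14.3% fell at low, and 18% and 14.8% at high. PSA1, which makes GDP-mannose, rose by 0.69 ± 0.056 and 0.79 ± 0.056, SEC59, the dolichol kinase gene, by 0.39 and 0.54, and PIS1, phosphatidylinositol synthase, by 0.81 and 0.93. In the N-limited mutant 6 fell and 1 rose with inositol-choline (17.7% and 19.5% of all genes). Among the falls was that of PSD1, phosphatidylserine decarboxylase, by 1.2 on the log2 scale. CHO1, phosphatidylserine synthase, had -0.98 ± 0.069 there and DPM1, which makes dolichol-phosphate-mannose, -0.66 ± 0.082. PSD1 and CHO1 fell as well in the N-limited reference, by -1.19 and -0.95. In that response 3 of the 13 fell and 2 rose (14.9% and 16.6% of all genes). The calls under N limitation have the same limit as those of the remodelling genes, with 13.5% and 2.57% of all genes called on the arrays compared alone.

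Of 33 genes of GPI-anchored proteins, which receive the anchor, 9 rose and 9 fell in the C-limited mutant at low inositol-choline and 8 and 7 at high. The shares of all genes were 20.2% and 14.3% at low and 18% and 14.8% at high. The cell wall mannoprotein genes TIR3 and TIR4 were lower at low by -1.66 and -1.63, and UTR2, a chitin transglycosylase gene, was higher by 1.94. At N low 3 rose and 2 fell (4.72% and 5.01% of all genes), with CWP1 at 0.92 and AGA1 at -0.86. The median differences of the list lay between -0.01 and 0.10 in the 4 strain comparisons.

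The genes most like MCD4 over the 8 group means, outside the lists, were PMT1 (r = 0.98), DFR1 (0.98), ULI1 (0.97), LCL2 (0.96) and SPC2 (0.94). PMT1 encodes a protein O-mannosyltransferase of the ER and SPC2 a subunit of signal peptidase. For the mean profile of the 10 members they were PMT2 (0.99), YOL155W-A (0.97), HOL1 (0.97), YEH2 (0.95) and STT3 (0.95). STT3 encodes the catalytic subunit of oligosaccharyltransferase.

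Of 18 genes of ER folding and the unfolded protein response, 10 had an r with MCD4 over 0.8, beside 1.54% of 5448 tested genes, with a median of 0.83 beside 0.09. The others ranged from 0.13 for IRE1 and 0.19 for HRD1 to 0.78 for SEC61, with HAC1 at 0.53. In the N-limited mutant at low inositol-choline 14 of the 18 were above the reference and 0 below (4.72% and 5.01% of all genes). SIL1, a nucleotide exchange factor, was higher by 1.27 ± 0.111, ERO1, the ER oxidase, by 1.25 ± 0.127 and KAR2, the ER Hsp70 chaperone, by 1.0 ± 0.135.

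With inositol-choline 11 of the 18 fell in the N-limited mutant and 0 rose (17.7% and 19.5% of all genes). KAR2 fell by 1.23 and ERO1 by 1.23 on the log2 scale (KAR2 adjusted p = 2.38e-06). The SD of KAR2 in this mutant was 0.32 at high and 0.04 at low. On these 6 arrays alone 13.5% of all genes were called for this response, and 0.184% with a replicate block as well. In the C-limited mutant 6 rose and 0 fell (10.2% and 13.2% of all genes), with rises of 0.66 for ERO1 and 0.45 for KAR2. The same test of the difference between these responses that gave -1.64 for MCD4 gave -1.88 ± 0.180 for ERO1 and -1.68 ± 0.190 for KAR2. In the N-limited mutant at high inositol-choline limma called 0 of the 18 against the reference (4.15% of all genes), with 0 at an unadjusted p under 0.05. MCD4 was not called there either.

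**Figure D4:**
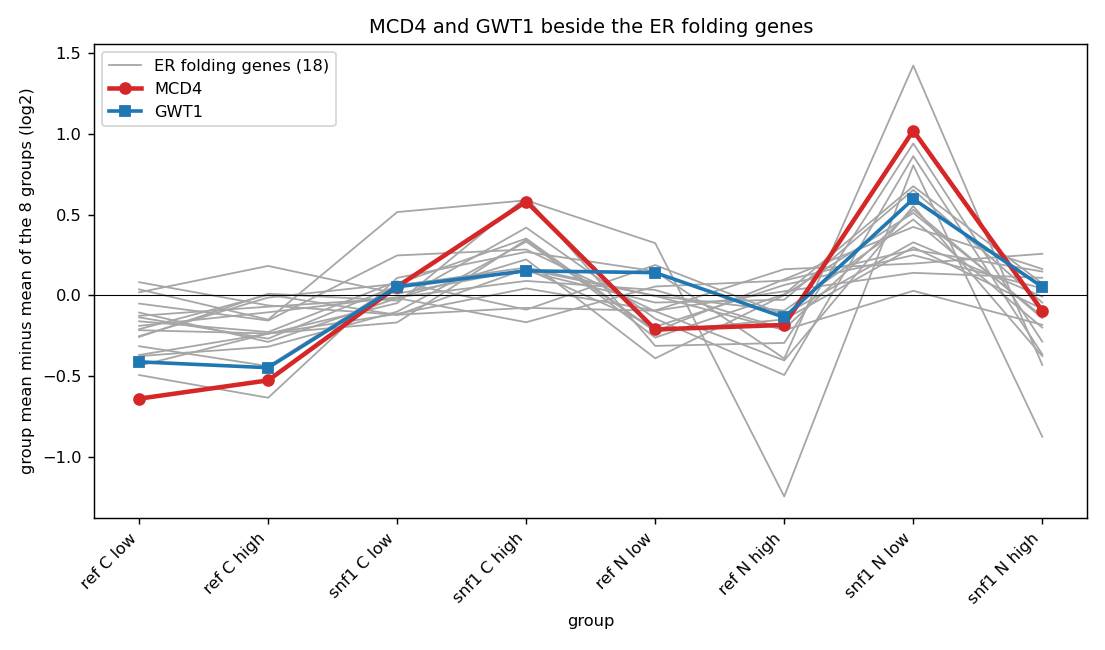
Group mean minus the mean of the 8 groups (vertical axis, log2) for MCD4 (red), GWT1 (blue) and 18 ER folding genes (grey) over the 8 groups (horizontal axis). MCD4 is at its highest, 1.02 above its mean, in the N-limited mutant at low inositol-choline, where all the grey lines are above 0.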

How the data were processed

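Expression was measured on 24 arrays. The authors deposited 1 value per probe set and array on a log2 scale, made with PLIER per the submitters' processing notes. That the base is 2 was inferred from the range of 4.82 to 13.25 and is not given in the sources used here. Column medians lay between 5.93 and 6.00, and the values were used as deposited.

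Of 10928 probe sets 7244 had 1 symbol, 1 had several and 3683 were not listed in the platform annotation. A total of 5498 matched S. cerevisiae genes, with 12 symbols updated through RefSeq, which gave 5449 genes. For the 47 genes with several, the one of highest mean was used. The background level of 5.59 is the 95th percentile of the means of 1746 named probe sets with no S. cerevisiae gene, and 274 genes lay below it. The number of arrays limits the precision.

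Groups came from the strain, limitation and inositol-choline labels, with titles deciding the limitation of 6 arrays. One mean per group was fitted over all 24 arrays by lmFit and eBayes of limma 3.58.1 (R 4.3.3), and p-values were adjusted over all genes by Benjamini-Hochberg in each of 18 comparisons. The script was tested on simulated data with the same spread of a gene in all groups. That test cannot show how calls hold where the N-limited high groups, of wider spread, enter. Alternatives were quantile normalization, leaving out dim genes, the 3' minus 5' signal as a covariate, weights by group, the arrays compared alone, with and without a replicate block, and leaving out arrays.

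Replicate numbers were checked for pairing. The deviations of arrays that share a number had correlations over 0.1 throughout for mutant and reference under N limitation at high (0.784 to 0.901) and at low inositol-choline (0.165 to 0.405), and for the mutant at low in both limitations (0.173 to 0.461).

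The 10 members and the lists were chosen with earlier results of these data known. Genes named are the members, SNF1 and INO1, up to 6 genes of each list per comparison with the smallest adjusted p, and the 5 genes most like MCD4 and most like the members' mean profile, among genes whose group means spanned at least 0.3. DAL5, and BST1, GPI15, KAR2 and other list genes in comparisons where they rank lower or for their r with MCD4, were named after their values were seen. No sequences are shown.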

Additional observations from a re-analysis of the deposited data

Results flagged for a closer look

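For MCD4 the test of the difference between effects was past the threshold in 5 of 6 interactions. The response to inositol-choline differed between strains by 0.41 under C limitation and by -1.14 under N limitation. It differed between limitations by -1.64 in the mutant. The strain difference differed between limitations by 0.54 at low and by -1.02 at high inositol-choline. For GPI13 the strain difference at high inositol-choline differed between limitations by 0.33, and for GPI8 by -0.89. The N-limited high groups enter 5 of these 7 values and had the widest spread between arrays, and the part of that spread in them was not tested beyond the alternatives given for each.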

How the results depend on the processing

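Of the members' calls, none changed sign under the alternatives run, and of the 14 called results of MCD4, 12 were called under all of them. The number of called members moved more, and so did the share of all genes called, which stands in brackets after each count. With the 3' minus 5' covariate the counts were 7 (45.1%), 7 (51%) and 6 (52.8%) for inositol-choline in the C-limited reference, C-limited mutant and N-limited mutant, and 4 (56.2%) for strain at C low. They were 7 (64.1%), 5 (63.3%) and 6 (64%) for N against C limitation in the reference at low and high and the mutant at high. For strain by inositol-choline under C and N, limitation by inositol-choline in the reference and mutant, and strain by limitation at low they were 3 (13.5%), 2 (8.55%), 2 (16.8%), 4 (32.2%) and 4 (38.7%). Without the 2 arrays of lowest 5' signal they were 7 (48.1%) and 9 (53.3%) for inositol-choline in the C-limited reference and mutant, 5 (58.5%) and 5 (28.5%) for strain at C low and N low, and 5 (66.1%) and 5 (64.4%) for N against C in the reference and mutant at high. For the same interactions, leaving out strain by inositol-choline under N, they were 3 (16.8%), 2 (16.1%), 4 (32.8%) and 4 (41.2%). With weights by group they were 8 (38.3%), 2 (8.72%) and 10 (62.3%) for inositol-choline in the C- and N-limited reference and C-limited mutant, 5 (55.8%) and 7 (47.1%) for strain at C low and N low, 7 (63.7%) for N against C in the mutant at low, and 3 (15.8%) and 4 (46.5%) for strain by inositol-choline under C and strain by limitation at low. Without strain at C low, these were 6 (34.2%), 1 (2.57%), 10 (60.6%), 7 (45.9%), 7 (62.9%), 3 (15%) and 6 (47.1%) on the arrays compared alone. With a replicate block as well they were 7 (34.5%), 0 (0.257%), 9 (59.7%), 7 (51%), 7 (66.5%), 3 (15.4%) and 6 (48%), and 1 (0.184%) for inositol-choline in the N-limited mutant. The block changed calls in comparisons whose numbers do not pair as well. Quantile normalization gave 1 (9.08%) for strain at N low, where GPI16 had an adjusted p of 0.0678 and GAA1 of 0.0603. The cause was not tested.

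Leaving out 1 array gave, for inositol-choline, 2 to 4 and 2 to 5 called members in the C- and N-limited reference and 3 to 5 and 3 to 4 in the mutant. For strain it gave 1 to 3, 4 to 5, 1 to 3 and 0 to 0 at C low, C high, N low and N high. For N against C it gave 3 to 5, 3 to 5, 4 to 5 and 3 to 4 in the reference at low and high and the mutant at low and high. For the interactions it gave 0 to 1 and 1 to 1 (strain by inositol-choline, C and N), 0 to 1 and 1 to 2 (limitation by inositol-choline, reference and mutant), and 1 to 2 and 3 to 4 (strain by limitation, low and high).

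Of 136 uncalled member results 54 changed sign under at least 1 alternative, with differences of at most 0.21 in size, and 4 of these were called with the changed sign. With the covariate, GPI10 was 0.21 and GPI14 -0.29 for inositol-choline in the N-limited mutant, GPI10 was 0.26 for N against C limitation in the reference at high (0.13 without the 2 arrays), and GPI2 was 0.28 for limitation by inositol-choline in the reference. GPI2 is limited by its signal near background.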
